A study of Mus musculus with 12 samples.

Results

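The 10 core genes of the circadian clock, *Arntl*, *Clock*, *Per1*, *Per2*, *Per3*, *Cry1*, *Cry2*, *Nr1d1*, *Nr1d2* and *Dbp*, were taken by gene symbol from RNA-seq tables of mouse small intestinal crypts and colon tumors, where they are 10 of 54532 genes. Levels are FPKM, fragments scaled to gene length and library size. Each of the 10 genes passed the filter used for testing, a mean FPKM of at least 0.5 over the 6 libraries of a tissue, as did 14176 genes in crypts and 16743 in tumors.

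The study asked what an intestinal enhancer of *Ctnnb1*, the gene for β-catenin, does in intestinal epithelium and in tumors. Crypts came from adult wild-type mice (WT, 3 libraries) and from adult mice homozygous for a deletion of the enhancer (*Ctnnb1 Δi.enh*, 3 libraries). Colon tumors came from mice of 5 months with the *Apc Min/+* mutation (3 libraries) and from mice that carried both this mutation and the deletion (*Ctnnb1 Δi.enh;Apc Min/+*, 3 libraries). The mice were untreated, on a C57BL/6 background, fed freely and kept under light and dark phases of 12 hours each. The deletion and the *Apc* mutation are in the germline, so every cell of the mouse carries them. Crypts were released with EDTA and filtered to remove villi, tumors were whole tissue, and no sort was applied to either. The paper describes replicates as biological, while the labels do not name the mouse of a library; p-values measure the spread between these samples. The hour at which a mouse was sampled is not given in the sources used here. Between 14457896 and 16156712 fragments per library lay on genes. *Ctnnb1* had an FPKM of 121, 134 and 122.7 in the WT crypts and 102, 104 and 105 in the *Ctnnb1 Δi.enh* crypts. In tumors it was 299, 363 and 358 with *Apc Min/+* and 279, 248 and 250 with the deletion added. *Ctnnb1* was thus lower in each knockout library than in each of its controls in both tissues, in the direction of the labels.

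The mammalian clock is a feedback loop of transcription. BMAL1, the product of *Arntl*, pairs with CLOCK on E-boxes and activates the *Per*, *Cry*, *Nr1d* and *Dbp* genes; PER and CRY proteins then block BMAL1 and CLOCK, the nuclear receptors encoded by *Nr1d1* and *Nr1d2* repress *Arntl*, and DBP acts on D-boxes of further clock genes. In the intestine, as in other peripheral organs, *Nr1d1* and *Dbp* transcripts peak ahead of those of *Per1* and *Per2*, and *Arntl* peaks in the opposite phase, under the influence of light and of feeding time.

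The promoters of several of these genes hold the sequences through which the loop acts. RefSeq promoters (GRCm38.p6) matched 9 of the 10 genes, all but *Per2*. The 250 bases before each start were searched on both strands for the E-box CACGTG, the E′-box CACGTT and the D-box TTATGTAA, which were found in 6.02%, 3.85% and 0.819% of 32851 promoters. Among the clock genes, *Per1* and *Cry1* had an E-box, *Cry1*, *Cry2* and *Nr1d1* an E′-box, and *Per3* had 2 D-boxes. In the bases searched *Arntl*, *Clock*, *Nr1d2* and *Dbp* had none of these motifs. *Tef*, a relative of *Dbp*, and *Ciart*, a repressor of BMAL1, are other clock genes described below. *Bhlhe41* and a second promoter of *Tef* also had an E-box, which is not shown. *Npas2*, *Nfil3* and *Hlf* had no motif, and *Bhlhe40* matched no promoter. Each window is written 5′ to 3′ on the strand of the gene, with the motif in capitals (an E′-box read from the other strand appears as AACGTG), and the motifs shown do not overlap.
*Per3*, chr4:151044854-151044879, minus strand: acccgcgcgTTATGTAAggtactcgg
*Per3*, chr4:151044807-151044832, minus strand: cgcccgcggTTATGTAAcccccgccg
*Cry1*, chr10:85185107-85185135, minus strand: gaAACGTGaggtgccggtggtCACGTGgg
*Per1*, chr11:69098774-69098797, plus strand: acccaagtcCACGTGcagggatgt
*Nr1d1*, chr11:98775391-98775414, minus strand: acagatctcAACGTGccggctgct
*Cry2*, chr2:92434221-92434244, minus strand: catggtgggAACGTGagggggcgg
*Tef*, chr15:81802537-81802560, plus strand: ctgtggctcCACGTGctgcagctg
*Ciart*, chr3:95882330-95882353, minus strand: atctagagtCACGTGttgccggta
*Ciart*, chr3:95882262-95882291, minus strand: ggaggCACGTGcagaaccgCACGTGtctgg

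Crypt libraries of the same genotype differed widely in some clock genes, *Dbp* among them, and little in *Clock*. The genotypes overlapped for each gene. *Dbp* (ENSMUSG00000059824, chr7:45705088-45710203, plus strand), the output factor of the loop, had an FPKM of 7.12, 8.54 and 19.7 in WT replicates 1, 2 and 3 and of 17.3, 6.14 and 17.6 in *Ctnnb1 Δi.enh* replicates 1, 2 and 3. WT replicate 3 and *Ctnnb1 Δi.enh* replicates 1 and 3 were high, the other libraries were low, and both genotypes held libraries of either kind. The highest library was 3.20-fold above the lowest. The group means were 11.8 ± 6.87 and 13.7 ± 6.53 (SD, n = 3 each). The log2 fold change of *Dbp* was 0.21, with an unadjusted 95% confidence interval of -0.97 to 1.38 and an adjusted p of 0.971 from limma.

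*Arntl* (ENSMUSG00000055116, chr7:113207465-113314126, plus strand), which encodes the activator BMAL1, had the lowest mean FPKM of the 10 genes in crypts. *Cry2* lay below it in WT replicate 1 and *Ctnnb1 Δi.enh* replicate 2. The FPKM of *Arntl* was 1.94, 1.85 and 1.48 in WT and 2.11, 2.66 and 1.24 in *Ctnnb1 Δi.enh* crypts. *Ctnnb1 Δi.enh* replicate 2, the library lowest in *Dbp*, was the highest in *Arntl*, and replicate 3 of both genotypes was low. *Clock* (ENSMUSG00000029238, chr5:76209868-76304792, minus strand), whose product is the partner of BMAL1 and whose transcript cycles little in most tissues, ran from 5.07 to 6.03 over the 6 libraries. The log2 fold change was 0.11 for *Arntl* (adjusted p = 0.965 from limma) and -0.00088 for *Clock* (adjusted p = 0.9999 from limma). The 2 genotypes overlapped for both.

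Among the repressors, *Per3* (ENSMUSG00000028957, chr4:151003652-151044665, minus strand) had an FPKM of 2.19, 3.03 and 4.32 in WT and 3.27, 1.62 and 4.42 in *Ctnnb1 Δi.enh* crypts. *Cry2* (ENSMUSG00000068742, chr2:92403646-92434043, minus strand) had 1.21, 2.05 and 2.86 in WT and 2.30, 0.944 and 2.93 in *Ctnnb1 Δi.enh* crypts. Both genes were highest in replicate 3 of each genotype and lowest in *Ctnnb1 Δi.enh* replicate 2 and WT replicate 1, close to the order of *Dbp*. *Nr1d1* (ENSMUSG00000020889, chr11:98767932-98775333, minus strand), which encodes REV-ERBα, had 23.0, 26.7 and 43.0 in WT and 35.4, 22.9 and 26.7 in *Ctnnb1 Δi.enh* crypts. It was the most abundant of the 10 genes per length, and WT replicate 3 and *Ctnnb1 Δi.enh* replicate 1 stood above the other 4 libraries. The log2 fold changes of *Per3*, *Cry2* and *Nr1d1* were -0.08, -0.02 and -0.10.

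*Per1* and *Per2* respond to light, feeding and hormones as well as to the clock, and did not share an order of libraries. Spearman's rho with *Dbp* over the crypt libraries was -0.086 for *Per1* and 0.714 for *Per2*. The FPKM of *Per1* (ENSMUSG00000020893, chr11:69095217-69109960, plus strand) was 6.88, 8.002 and 3.99 in WT and 3.19, 6.31 and 10.9 in *Ctnnb1 Δi.enh* crypts. For *Per2* (ENSMUSG00000055866, chr1:91415982-91459324, minus strand) it was 7.004, 6.06 and 8.03 in WT and 4.96, 4.80 and 11.9 in *Ctnnb1 Δi.enh* crypts. *Ctnnb1 Δi.enh* replicate 3 was the highest library for both. WT replicate 3 and *Ctnnb1 Δi.enh* replicate 1, which were high in *Dbp*, were the lowest libraries for *Per1*. *Cry1* (ENSMUSG00000020038, chr10:85131700-85185064, minus strand) was also highest in *Ctnnb1 Δi.enh* replicate 3, with 5.56 against 2.80 to 3.42 in the other 5 libraries. *Nr1d2* (ENSMUSG00000021775, chr14:18204054-18239127, minus strand), which encodes REV-ERBβ, ran from 12.4 in *Ctnnb1 Δi.enh* replicate 2 to 19.6 in WT replicate 2, and its log2 fold change of -0.19 was accompanied by an adjusted p of 0.909 from limma, the lowest among the 10 genes.

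**Figure D1:**
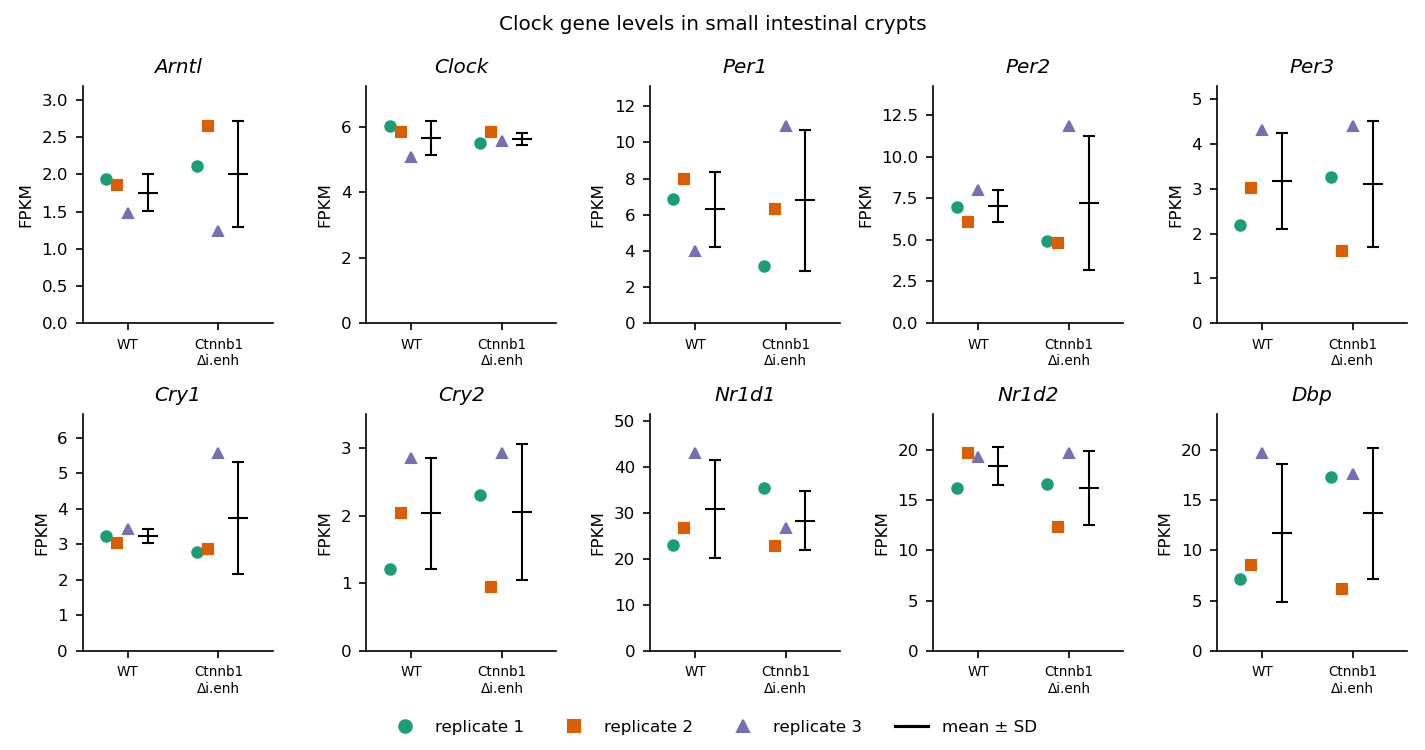
FPKM of the 10 clock genes in the 6 crypt libraries, by genotype on the horizontal axis, with symbols for replicates and bars for the mean ± SD. The genotypes overlap in each panel, and *Dbp* runs from 6.14 to 19.7.

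In the test of *Ctnnb1 Δi.enh* against WT crypts, 0 of the 10 genes had an adjusted p under 0.05 in limma, as for 0 (0%) of the 14176 tested genes, and voom also gave 0. At an unadjusted p under 0.05 the count was 0 of 10, against 829 genes (5.85%), and it was 1 without *Ctnnb1 Δi.enh* replicate 3, where *Per2* had a log2 fold change of -0.48. Groups did not overlap for 0 of 10, against 11.9% of all tested genes. In *Ctnnb1 Δi.enh* crypts 4 of the 10 were higher and 6 lower, with a median log2 fold change of -0.01 (0.01 over all tested genes). *Clock*, *Per1* and *Cry2* took the other direction under other scalings. When 1 library was left out, 9 of the 10 took the other direction in at least 1 fit, all but *Nr1d2*, and *Dbp* ran from -0.067 to 0.69. The median size of the change was 0.086 on the log2 scale for the clock genes and 0.147 for all tested genes, while the median standard error was 0.296 and 0.184. The exact permutation p of a gene was 0.6 or higher in crypts, where 3 libraries against 3 cannot go below 0.1.

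The spread between libraries of a genotype could be ranked among all genes. Pooled over both genotypes, the within-group SD of log2(FPKM + 0.5) of *Dbp* was 0.790 in crypts, higher than for 95.4% of the 14176 tested genes. *Per1* with 0.672 and *Cry2* with 0.577 lay above 93.3% and 90.4%. For 9 of the 10 genes the SD was above the median of all tested genes, 0.222. *Clock* was the exception with an SD of 0.091, lower than for most genes (percentile 6.74). *Dbp* rested on 308 to 923 fragments per crypt library (counting CV at most 5.70%) and *Cry2* on 100 to 283 (at most 10%). In tumors, the 10 genes had a median SD of 0.247 against 0.186 for all tested genes, and 0 were above the 90th percentile (highest *Per1*, 83.4). Among the 9041 tumor genes with a mean FPKM of 5 or more, *Per1* was at 91.8 and *Per2* at 89.7.

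**Figure D2:**
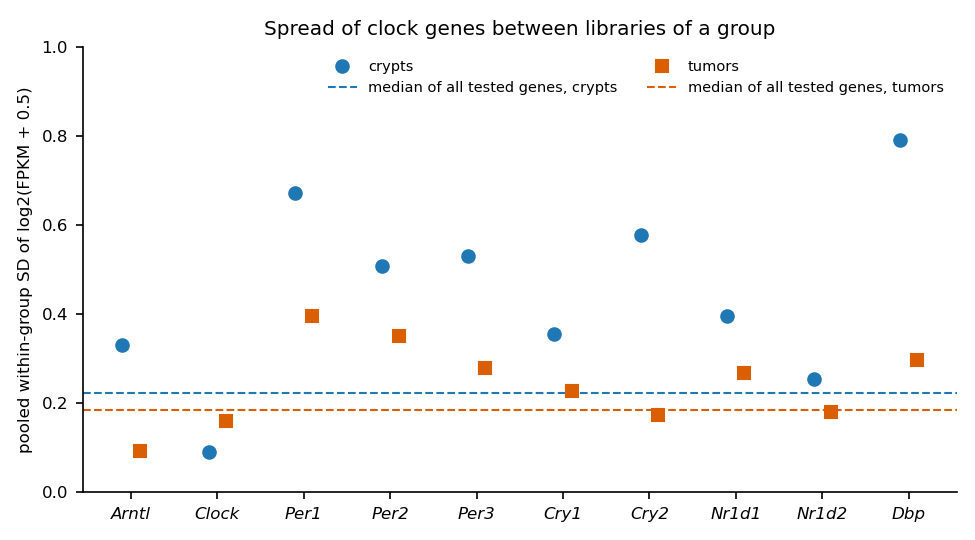
Pooled within-group SD of log2(FPKM + 0.5) for each clock gene in crypts (circles) and tumors (squares); dashed lines mark the median of all tested genes, 0.222 and 0.186. In crypts 9 of 10 genes lie above the line, with *Dbp* at 0.790.

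Ratios of genes within a library do not depend on how the library was scaled, though they can depend on the cells sampled. The ratio of *Dbp* to *Arntl* was 3.67, 4.61 and 13.3 in WT and 8.20, 2.31 and 14.2 in *Ctnnb1 Δi.enh* crypts. The ratio of *Nr1d1* to *Arntl* was 11.9, 14.4 and 29.2 in WT and 16.7, 8.62 and 21.5 in *Ctnnb1 Δi.enh* crypts. For *Per3* to *Arntl* it was 1.13, 1.64 and 2.93 in WT and 1.55, 0.608 and 3.56 in *Ctnnb1 Δi.enh* crypts. In each of these ratios *Ctnnb1 Δi.enh* replicate 2 was the lowest library and WT replicate 1 the next, while replicate 3 of both genotypes took the highest values. *Ciart* differed, as its ratio to *Arntl* was 2.67 in *Ctnnb1 Δi.enh* replicate 3, 0.385 and 0.437 in replicates 1 and 2, and between 0.803 and 1.001 in WT. The log2 ratio of *Dbp* to *Arntl* spanned 2.62 over the 6 crypt libraries, and the genotype means, 2.61 ± 0.99 and 2.69 ± 1.34 (SD, n = 3 each), lay within this spread. With *Clock* or *Npas2* as the reference the span of *Dbp* was 1.88 and 1.73, and *Ctnnb1 Δi.enh* replicate 2 and WT replicate 1 again were the lowest. For *Nr1d1* the span was 1.76 with *Arntl*, 1.15 with *Clock* and 0.96 with *Npas2*, where *Ctnnb1 Δi.enh* replicate 3 was the second lowest library, so its high place rests on *Arntl* as the reference. The part of collection time in these differences was not tested.

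**Figure D3:**
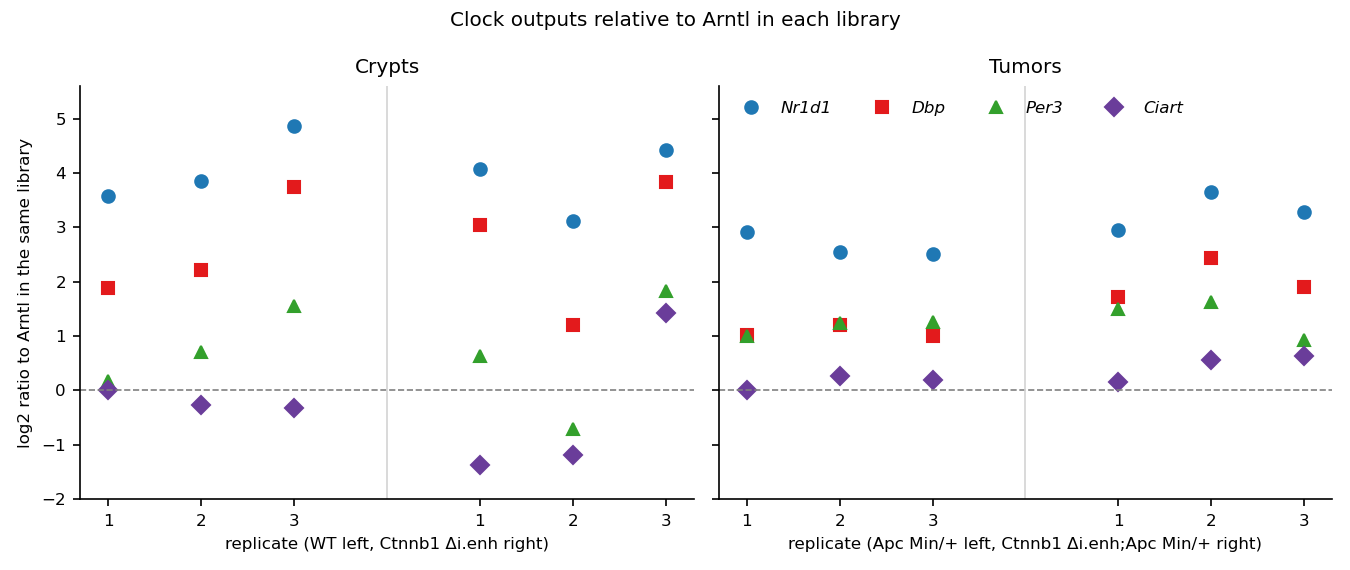
Log2 ratio of *Nr1d1*, *Dbp*, *Per3* and *Ciart* to *Arntl* in each library of crypts (left panel) and tumors (right panel), with controls left of the grey line and knockouts right of it. Crypt libraries of a genotype span up to 2.62 for *Dbp*; in tumors the knockout libraries lie above the control libraries for *Dbp* and *Nr1d1*.

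Across the 6 crypt libraries most clock genes ran against *Arntl*. Pearson's r with *Arntl* on the log2 scale was -0.933 for *Per2*, -0.890 for *Per3*, -0.865 for *Nr1d2*, -0.828 for *Cry2*, -0.825 for *Cry1* and -0.697 for *Dbp*, with Spearman's rho of -0.943, -0.829, -0.771, -0.829, -0.886 and -0.771. *Per2* lay at percentile 0.353 of r among all tested genes, *Per3* at 1.02 and *Dbp* at 6.47. After the group means were taken out, r was -0.938 for *Per2*, -0.895 for *Per3* and -0.755 for *Dbp*. *Clock* had an r of 0.504, *Nr1d1* of -0.382 and *Per1* of -0.336. Without the 2 libraries farthest from the median of *Arntl*, *Ctnnb1 Δi.enh* replicates 2 and 3, r was -0.857 for *Per2*, -0.661 for *Per3* and -0.368 for *Dbp*, so the relation of *Dbp* rests largely on these libraries. These are descriptions over 6 libraries, 9 of 18 relations computed with *Arntl*, and both genes of a pair share the scaling and cell composition of each library.

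In the small intestinal crypts the level of *Dbp* also varied with a sum of surface cell markers. The summed FPKM of 7 villus and surface enterocyte genes (*Alpi*, *Apoa1*, *Apoa4*, *Fabp1*, *Sis*, *Krt20* and *Slc26a3*; *Apoa1* the most abundant, none at 0) was 2056, 2815 and 6196 in WT and 3963, 3048 and 4517 in *Ctnnb1 Δi.enh* crypts. WT replicate 3 and *Ctnnb1 Δi.enh* replicates 1 and 3, the libraries high in *Dbp*, were also the highest in this sum. *Alpi*, *Apoa1*, *Apoa4*, *Fabp1* and *Sis* were each highest in these libraries, while *Krt20* and *Slc26a3* were not. *Krt20* was 405 in *Ctnnb1 Δi.enh* replicate 1, below 550 in WT replicate 2 and 428 in *Ctnnb1 Δi.enh* replicate 2. *Slc26a3* was 14.6 in WT replicate 3, below 16.9 in WT replicate 2 and 17.7 in *Ctnnb1 Δi.enh* replicate 2. Over the 6 libraries r of the sum with *Dbp* was 0.866 (rho 0.829, and 0.894 without the 2 libraries farthest from the median of *Dbp*), and with *Arntl* -0.547. The stromal sum had an r of -0.739 with *Dbp* (rho -0.714, and -0.488 without these 2 libraries) and the smooth muscle sum of -0.595 (rho -0.314, and -0.767), both at low levels. The sum of 5 crypt base and cycling genes (*Defa24* the most abundant) was 15703, 21767 and 44854 in WT and 17491, 14633 and 15292 in *Ctnnb1 Δi.enh* crypts, carried by the Paneth cell genes *Defa24* and *Lyz1*. The cycling gene *Mki67* went the other way in WT, at 31.1, 20.6 and 16.4, as did *Olfm4* at 960.3, 755 and 530.4, so the sum does not stand for crypt base and cycling cells as a whole. The crypt protocol of the paper includes a filter against villi. The part of cell composition in the clock gene levels was not tested, and in bulk libraries a change in the cells sampled and a change in RNA per cell cannot be told apart. The epithelial genes *Epcam*, *Cdh1*, *Krt8*, *Krt18* and *Vil1* summed to an FPKM of 2853 to 3583. The 4 smooth muscle genes summed to at most 0.923 and the 3 endothelial genes to at most 0.779. The stromal and immune sums reached 14.6 and 34.2.

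In colon tumors 0 of the 10 genes passed adjustment, and the groups did not overlap for 3 of them, against 22.1% of all tested genes. *Dbp* had an FPKM of 3.05, 4.25 and 3.57 with *Apc Min/+* and of 4.46, 7.69 and 5.53 with *Ctnnb1 Δi.enh;Apc Min/+*. Each knockout library was above each control library. The means were 3.63 ± 0.601 and 5.89 ± 1.64 (SD, n = 3 each). The log2 fold change was 0.61 with a 95% confidence interval of 0.11 to 1.11, not adjusted for the number of genes, and an adjusted p of 0.308 from limma (unadjusted 0.0232; exact permutation p = 0.1). The fold change ran from 0.42 without *Ctnnb1 Δi.enh;Apc Min/+* replicate 2 to 0.78 without replicate 1 of that genotype.

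*Arntl* was lower in each knockout library, at 1.503, 1.84 and 1.79 with *Apc Min/+* and 1.35, 1.43 and 1.47 with *Ctnnb1 Δi.enh;Apc Min/+*. The gap between the groups was narrow, with a log2 fold change of -0.20 (adjusted p = 0.517 from limma). *Clock* had an FPKM of 9.21, 11.7 and 10.8 with *Apc Min/+* and 8.48, 9.51 and 7.59 with *Ctnnb1 Δi.enh;Apc Min/+*. The groups of *Clock* overlapped by 1 library of each genotype, and its log2 fold change was -0.29 (adjusted p = 0.357 from limma). *Cry2* had 7.65, 7.20 and 9.64 with *Apc Min/+* and 6.24, 6.90 and 5.70 with *Ctnnb1 Δi.enh;Apc Min/+*. All 3 knockout libraries of *Cry2* lay below the control libraries; their means were 6.28 ± 0.597 for the knockout and 8.16 ± 1.30 for the control (SD, n = 3 each). Its log2 fold change was -0.35, with an unadjusted 95% confidence interval of -0.67 to -0.02 and an adjusted p of 0.333 from limma (unadjusted 0.0392; exact permutation p = 0.1). The fold change of *Cry2* ran from -0.43 without *Apc Min/+* replicate 2 to -0.23 without *Apc Min/+* replicate 3.

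*Nr1d1* had an FPKM of 11.4, 10.7 and 10.2 with *Apc Min/+* and 10.5, 17.8 and 14.4 with *Ctnnb1 Δi.enh;Apc Min/+*. *Ctnnb1 Δi.enh;Apc Min/+* replicates 2 and 3 were above the controls and replicate 1 was among them, for a log2 fold change of 0.36 (adjusted p = 0.408 from limma). It was 0.19 without *Ctnnb1 Δi.enh;Apc Min/+* replicate 2 and 0.56 without replicate 1 of that genotype. *Per1* had 6.52, 10.3 and 12.7 with *Apc Min/+* and 16.4, 14.7 and 10.7 with *Ctnnb1 Δi.enh;Apc Min/+*, and *Per2* had 3.79, 6.75 and 7.33 against 8.04, 8.86 and 7.05. *Apc Min/+* replicate 1 was the lowest library for both *Per* genes, and the groups overlapped. The log2 fold changes of *Per1* and *Per2* were 0.51 and 0.44 (adjusted p = 0.409 and 0.425 from limma), and without *Apc Min/+* replicate 1 they were 0.25 and 0.17. *Per3*, *Cry1* and *Nr1d2* ran from 2.81 to 4.41, from 4.86 to 7.34 and from 13.1 to 18.2 over the 6 libraries, with log2 fold changes of -0.07, 0.15 and -0.06. The groups of these 3 genes overlapped, and leaving out 1 library moved *Cry1* between 0.043 and 0.29.

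**Figure D4:**
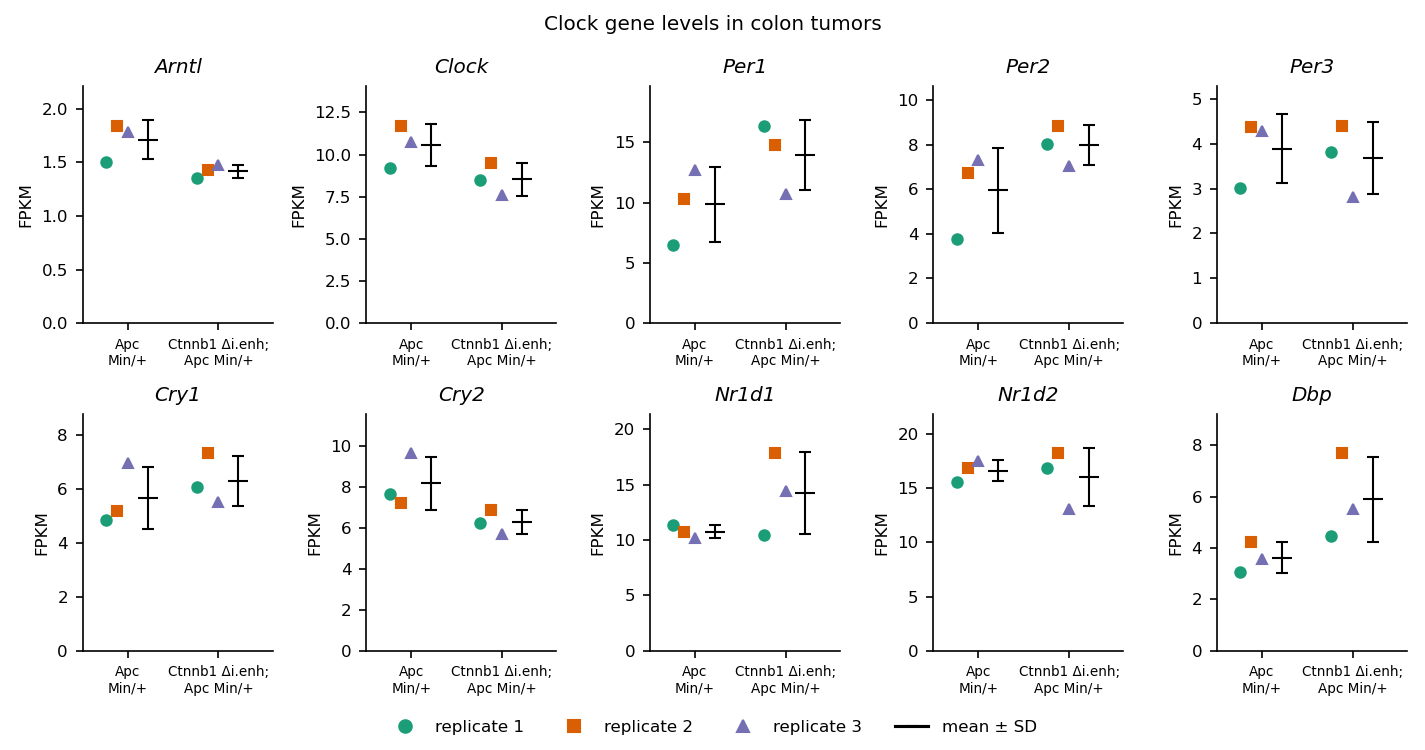
FPKM of the 10 clock genes in the 6 colon tumor libraries, by genotype on the horizontal axis, with symbols for replicates and bars for the mean ± SD. The groups do not overlap for *Dbp*, *Cry2* and *Arntl*, and they overlap for the other 7 genes.

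In the tumor test 0 of the 10 genes had an adjusted p under 0.05 in limma, as for 0 (0%) of the 16743 tested genes, and voom also gave 0. Before adjustment, p lay under 0.05 for 2 of 10, *Dbp* and *Cry2*, against 2421 genes (14.5%). Which genes these were depended on single libraries. They were *Clock* without *Apc Min/+* replicate 1, *Per1* without *Apc Min/+* replicate 3 and *Dbp* without *Ctnnb1 Δi.enh;Apc Min/+* replicate 3. They were *Dbp* and *Nr1d1* without *Ctnnb1 Δi.enh;Apc Min/+* replicate 1, *Clock* and *Cry2* without replicate 2 of that genotype, and *Dbp* and *Cry2* without *Apc Min/+* replicate 2. Under 3 other scalings and voom *Clock* joined *Dbp* and *Cry2*. Groups did not overlap for 3 of 10, against 22.1% of all tested genes. In the knockout tumors 5 clock genes were higher and 5 lower, with a median log2 fold change of 0.04 (0.01 over all tested genes). The median size of the change was 0.320 on the log2 scale, against 0.179 for all tested genes. The difference between the effects in tumors and in crypts was not tested.

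**Figure D5:**
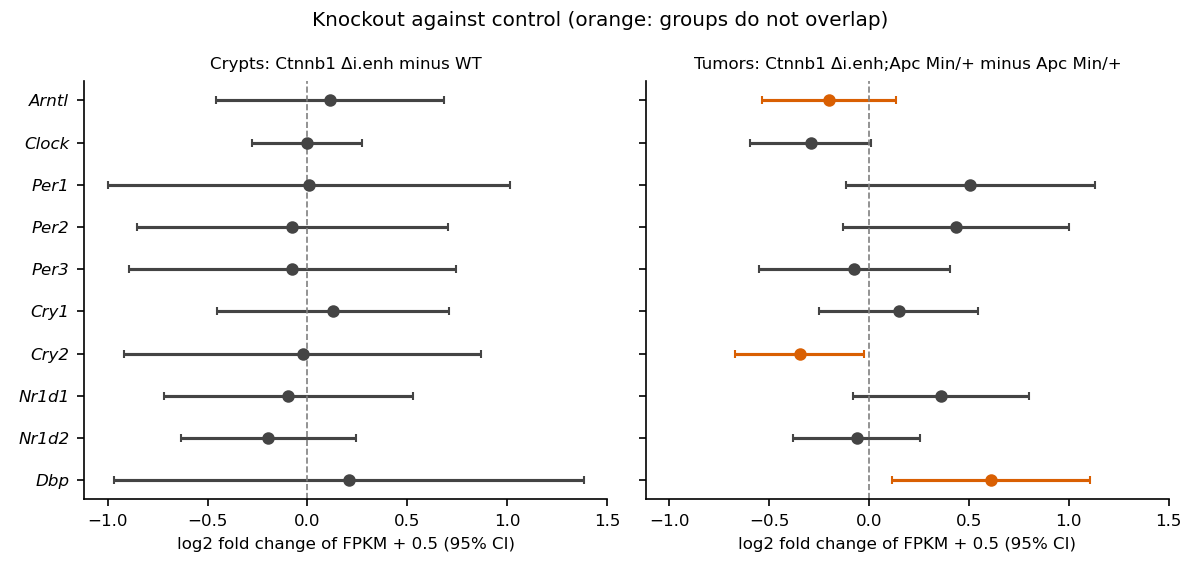
Log2 fold change of each clock gene on the scale of FPKM + 0.5, knockout minus control, with unadjusted 95% confidence intervals, in crypts (left panel) and tumors (right panel); orange marks genes whose groups do not overlap. The interval of *Dbp* runs from -0.97 to 1.38 in crypts and from 0.11 to 1.11 in tumors.

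Set against *Arntl* in the same library, *Dbp* was 2.03, 2.31 and 2.001 times as high per length with *Apc Min/+* and 3.30, 5.39 and 3.75 times with *Ctnnb1 Δi.enh;Apc Min/+*. *Nr1d1* was 7.56, 5.81 and 5.71 times as high with *Apc Min/+* and 7.74, 12.5 and 9.77 times with *Ctnnb1 Δi.enh;Apc Min/+*. *Per2* was 2.52, 3.66 and 4.10 times as high with *Apc Min/+* and 5.94, 6.21 and 4.78 times with *Ctnnb1 Δi.enh;Apc Min/+*. For these 3 genes each knockout library was above each control library, by 0.03 on the log2 scale at the nearest for *Nr1d1*, and the groups overlapped for *Per3*, *Ciart* and *Cry2*. Since *Arntl* itself was lower in each knockout library, such a ratio is common: of 16202 genes above 0 in each tumor library 29.0% lay apart in this direction with *Arntl* as the reference. The log2 ratio of *Dbp* to *Arntl* had means of 1.08 ± 0.11 and 2.02 ± 0.37 (SD, n = 3 each) and spanned 1.43 over the tumor libraries. With *Clock* as the reference the ratios of *Dbp* and *Per2* were apart by 0.54 and 0.45 on the log2 scale and that of *Nr1d1* by 0.0023, against 25.7% of genes apart in this direction. With *Npas2* the ratios of *Dbp* and *Per2* were apart by 0.18 and 0.12, against 2.23% of genes, and those of *Nr1d1* overlapped. Over the 6 tumor libraries r with *Arntl* was -0.414 for *Dbp* and -0.470 for *Nr1d1*, but 0.576 and 0.082 after the group means were taken out. The negative r of *Dbp* with *Arntl* in tumors thus came from the group means. For neither gene did the difference between these pass adjustment (adjusted p = 0.308 for *Dbp* and 0.517 for *Arntl* from limma). With 3 libraries per genotype, r within the genotypes is uncertain. For *Per2*, r was -0.102 over all and 0.807 within the genotypes. Spearman's rho with *Arntl* over the 6 libraries was -0.600 for *Dbp*, -0.314 for *Nr1d1* and -0.657 for *Per2*. Without *Apc Min/+* replicates 2 and 3, the 2 libraries farthest from the median of *Arntl*, r was -0.302, 0.199 and -0.715.

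Sums of cell type markers were also compared in the tumors, where 0 of 27 tested marker genes passed adjustment in limma and 7 had an unadjusted p under 0.05 (14.5% of all tested genes), each of them higher in the knockout. All 5 epithelial genes were higher in each knockout library than in each control, where 22.1% of all tested genes did not overlap, with sums of 3151, 3090 and 2802 against 3610, 3558 and 3678 (*Krt8* the most abundant). The 7 genes with an unadjusted p under 0.05 were *Vil1* of the epithelium, *Krt20* of surface enterocytes, *Col1a1*, *Col3a1* and *Dcn* of the stroma, *Acta2* of smooth muscle and *Pecam1* of the endothelium. Their lists were not uniform, since *Des* of smooth muscle had a log2 fold change of -0.18 and *Kdr* and *Cdh5* of the endothelium had -0.09 and 0.04. The 7 villus and surface enterocyte genes, mostly *Krt20*, summed to 94.9, 51.8 and 53.7 with *Apc Min/+* and 115, 131 and 120 with *Ctnnb1 Δi.enh;Apc Min/+*; *Apoa4* and *Fabp1* were at 0 in 5 of 6 libraries. The smooth muscle sum was 116, 113 and 94.2 against 133, 122 and 132, and the endothelial sum 25.6, 23.7 and 21.2 against 27.0, 27.1 and 26.2. The stromal sum was 486, 335 and 425 against 484, 577 and 525, and the immune sum, mostly *Lyz2*, was 409, 266 and 464 against 366, 507 and 273. The crypt base and cycling sum was 1016, 1245 and 1367 against 1858, 2758 and 936. The immune and crypt base sums overlapped between the genotypes, and so did the stromal sum, in which *Vim* was not higher in the knockout while the other 4 genes had higher means. The r values that follow were computed without taking out the group means, so they include the difference between the genotypes. In each knockout library *Arntl* was lower and *Dbp* higher than in each control. The villus and surface, epithelial, smooth muscle and endothelial sums were also higher in each knockout library. Over the 6 libraries r of *Arntl* was -0.961 with the villus and surface sum, -0.889 with the endothelial, -0.847 with the stromal and -0.836 with the epithelial sum. Without the 2 libraries farthest from the median of *Arntl* these were -0.469, -0.870, 0.047 and -0.563. With the smooth muscle, the crypt base and cycling, and the immune sum, r of *Arntl* was -0.798, -0.346 and -0.227. Without these 2 libraries it was -0.608, -0.675 and -0.154. For *Dbp*, r was 0.682 with the epithelial sum, 0.579 with the villus and surface, 0.534 with the endothelial, 0.530 with the stromal and 0.488 with the smooth muscle sum. Without the 2 libraries farthest from the median of *Dbp* these were 0.888, 0.782, 0.809, 0.555 and 0.861. With the crypt base and cycling sum r of *Dbp* was 0.628 and with the immune sum 0.087, and without these 2 libraries -0.522 and -0.736. The part of tissue composition in the clock gene differences was not tested. *Xist* reached 114 and 61.4 in the libraries numbered 3 and at most 0.0623 in the other tumor libraries, a gene expressed in females; without both *Xist* libraries *Dbp* had a log2 fold change of 0.63 and *Cry2* of -0.17, neither with an unadjusted p under 0.05. Under the same setting *Per1* had 0.88, *Per2* 0.68 and *Cry1* 0.38, and *Per1* and *Cry1* were the genes with an unadjusted p under 0.05 (adjusted p = 0.680 for both from limma).

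Several clock genes share bases with a neighbour, and the library kit is not stated to mark strand, so that fragments of opposite genes cannot be told apart there. *Dbp* shares 737 bases with *Sphk2* on the opposite strand, whose FPKM was 12.7, 16.6 and 19.7 in WT and 22.2, 18.7 and 16.6 in *Ctnnb1 Δi.enh* crypts. *Sphk2* varied 1.75-fold between crypt libraries, *Dbp* 3.20-fold, and in tumors *Sphk2* had a log2 fold change of 0.09. *Nr1d1* shares 1075 bases with *Thra*, which ran with it in crypts (r = 0.844) and against it in tumors (r = -0.857, n = 6 each). *Cry2* shares 23417 bases with *D930015M05Rik* on the opposite strand (mean FPKM 0.236 in crypts and 1.31 in tumors), whose log2 fold change in tumors was -0.38. *Per3* lies wholly within *Camta1* on the same strand, which had a mean FPKM of 0.414 in crypts and 3.19 in tumors, so that the level of *Per3* in tumors is uncertain. *Clock* shares 459 bases with *Ube2n-ps1* on the same strand (mean FPKM 5.81 in crypts and 6.36 in tumors) and 4176 with *Gm43658* (0.0316 and 0.0230), and *Arntl* shares 2394 bases with *Gm45355* on the opposite strand (0.184 and 0.0348).

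Other genes of the clock were described from a list of 20. In crypts 16 passed the filter, 10 with a positive and 6 with a negative log2 fold change, with 0 at an unadjusted p under 0.05 (5.85% of all tested genes) and a median log2 fold change of 0.05; *Rora*, *Rorb*, *Bhlhe41* and *Fbxl21* were below the filter. *Tef* had an FPKM of 7.49, 10.04 and 14.97 in WT and 11.7, 7.11 and 16.2 in *Ctnnb1 Δi.enh* crypts. *Hlf*, the third factor of the family of *Dbp* and *Tef*, had 0.483, 0.578 and 0.697 in WT and 1.19, 0.313 and 1.75 in *Ctnnb1 Δi.enh* crypts. *Tef* kept close to the order of *Dbp*, with an r of 0.939 (rho 0.943; percentile 99.7 among all tested genes), and *Hlf* had an r of 0.799, *Per3* of 0.914 and *Cry2* of 0.923. Without the 2 libraries farthest from the median of *Dbp*, r was 0.803, 0.536, 0.747 and 0.815. These are among 18 relations computed with *Dbp*, which ran down to -0.864 for *Clock*. *Nfil3* had -0.569, *Bhlhe40* -0.339, *Per1* -0.336 and *Ciart* 0.025. *Nr1d1* had 0.827, *Nr1d2* 0.641, *Per2* 0.495, *Npas2* 0.463 and *Cry1* 0.445. In tumors r with *Dbp* was 0.894 for *Tef*, 0.227 for *Per3* and -0.535 for *Cry2*.

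The PAR bZIP factors named above are opposed at D-boxes by NFIL3. *Nfil3* had an FPKM of 4.97, 2.23 and 2.204 in WT and 2.27, 2.92 and 2.71 in *Ctnnb1 Δi.enh* crypts, highest in WT replicate 1. *Npas2*, which can stand in for *Clock*, was even, at 2.79 to 3.36, with a within-group SD of 0.073 (percentile 3.44). *Ciart* had 1.94, 1.53 and 1.19 in WT and 0.815, 1.16 and 3.31 in *Ctnnb1 Δi.enh* crypts. *Bhlhe40*, another repressor acting on E-boxes, ran from 15.1 in *Ctnnb1 Δi.enh* replicate 1 to 27.0 in replicate 3. Replicate 3 of *Ctnnb1 Δi.enh* was thus the highest library for *Ciart*, *Bhlhe40*, *Per1*, *Per2* and *Cry1*. It was also the highest for *Per3*, *Cry2*, *Tef*, *Hlf* and *Npas2*, so this is not particular to a few repressors. For *Dbp*, *Nr1d1*, *Nr1d2*, *Nfil3*, *Clock* and *Arntl* another library was the highest. *Bhlhe41* stayed at or below 0.163.

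In tumors 17 of the 20 passed the filter, 9 with a positive and 8 with a negative log2 fold change, and a median log2 fold change of 0.01; *Rorb*, *Hlf* and *Bhlhe41* were below it. *Csnk1e*, which encodes a kinase of PER proteins, was the gene with an unadjusted p under 0.05, 1 of 17 against 14.5% of all tested genes. Its FPKM was 21.7, 24.1 and 26.3 with *Apc Min/+* and 19.6, 18.5 and 21.6 with *Ctnnb1 Δi.enh;Apc Min/+*, just apart, and its log2 fold change was -0.27 (adjusted p = 0.335 from limma). *Tef* had 7.60, 9.42 and 9.503 with *Apc Min/+* and 9.62, 11.8 and 9.55 with *Ctnnb1 Δi.enh;Apc Min/+*, also just apart, with a log2 fold change of 0.21 (adjusted p = 0.471 from limma). *Btrc*, which encodes a ubiquitin ligase subunit for PER proteins and was named after its values were seen, had 1.99, 2.06 and 2.41 with *Apc Min/+* and 1.75, 1.82 and 1.55 with *Ctnnb1 Δi.enh;Apc Min/+*, the third gene whose groups did not overlap, so that 3 of 17 were apart against 22.1% of all tested genes. *Npas2*, *Nfil3*, *Ciart* and *Bhlhe40* had log2 fold changes of -0.16, 0.10, 0.03 and 0.16, and their groups overlapped. *Hlf* was at or below 0.681 and *Bhlhe41* at or below 0.450.

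Genes that answer to glucocorticoids, fasting and handling of the animal were listed because *Per1* answers to them too; those given with values were chosen after the values were seen. Of 14 such genes 13 passed the filter in crypts, 6 higher and 7 lower, and *Dusp1* had an unadjusted p under 0.05, 1 of 13 genes against 5.85% of all tested genes. The FPKM of *Dusp1*, an immediate early phosphatase, was 3.26, 1.503 and 1.75 in WT and 0.774, 1.46 and 1.08 in *Ctnnb1 Δi.enh* crypts, with a log2 fold change of -0.70 (adjusted p = 0.845 from limma). The glucocorticoid target *Sgk1* had 13.5, 38.2 and 14.1 in WT and 5.24, 20.1 and 66.5 in *Ctnnb1 Δi.enh* crypts, highest and lowest in the same libraries as *Per1*. *Fkbp5*, another target of the receptor, had 9.38, 1.82 and 2.45 in WT and 1.90, 5.69 and 8.47 in *Ctnnb1 Δi.enh* crypts. The heat shock gene *Hspa1b* ran from 0.438 in *Ctnnb1 Δi.enh* replicate 1 to 32.9 in WT replicate 1. In tumors 14 of 14 passed, 11 higher and 3 lower, and *Hspa1a*, *Hspa1b* and *Pdk4* had an unadjusted p under 0.05, 3 of 14 genes against 14.5% of all tested genes. *Hspa1b* had 7.58, 5.67 and 5.51 with *Apc Min/+* and 10.2, 18.4 and 42.9 with *Ctnnb1 Δi.enh;Apc Min/+*, and *Hspa1a* had 1.31, 0.919 and 1.08 against 2.26, 4.03 and 11.97, without overlap (log2 fold changes 1.62 and 1.75; adjusted p = 0.285 and 0.286 from limma). *Pdk4*, a fasting gene, had 4.35, 8.77 and 10.1 against 3.33, 4.63 and 2.74 (log2 fold change -0.97, adjusted p = 0.303 from limma). The part of handling in the clock gene levels was not tested.

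The genes most like *Dbp* in crypts, by r over the 6 libraries among 12278 genes outside the 10 whose mean FPKM reached 1, were *Ifi27* (0.994), *0610030E20Rik* (0.991), *Lrsam1* (0.987), *Ace* (0.986) and *Uba7* (0.979). *Ace*, which encodes a peptidase of the brush border, ran from 96.5 to 242. Most like *Arntl* were *Thap7* (0.981), *Ppia* (0.976), *Asnsd1* (0.9745), *Cmss1* (0.973) and *Pop4* (0.973). In tumors, among 14541 genes, *Golph3l* (0.993), *Alg2* (0.978), *Ghitm* (0.974), *Tnni3* (0.972) and *Eno3* (0.971) were most like *Dbp*, and *2410131K14Rik* (0.997), *Zfp119a* (0.996), *Slc11a2* (0.986), *Zfyve27* (0.986) and *Sgsm1* (0.985) most like *Arntl*. An r above 0.95 was reached by 28 genes for *Dbp* and 18 for *Arntl* in crypts, and by 32 and 44 in tumors. Of these 20 genes 0 are on the list of 20 other clock genes. The 10 clock genes had been left out beforehand, and the list is small beside the 12278 and 14541 candidates. The 0 therefore says little about the clock.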

How the data were processed

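RNA-seq of 12 libraries was used, 3 in each of 4 groups, small intestinal crypts and colon tumors with and without the *Ctnnb1* enhancer. The deposited tables hold FPKM that the authors computed from paired-end reads on mm10. For their own processing the authors name cutadapt, HISAT2, Cufflinks 2.2.1 and DESeq2 with the deposited files, and HISAT2, featureCounts and DESeq2 in the paper. FPKM times gene length gave whole numbers of fragments, within 0.1, for 100% of the genes above 0 in each library. The tables of the 2 tissues were made separately, so levels and tests were compared within a table. The unit tested is log2(FPKM + 0.5).

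Knockout was compared with control in limma 3.58.1 (R 4.3.3) with a variance trend, for genes whose mean FPKM reached 0.5, with Benjamini-Hochberg adjustment over all tested genes of a tissue and a threshold of 0.05. An exact permutation test over the 6 libraries, which cannot go below 0.1, was run for each gene. The limma test was tested on simulated data that kept the spread of these libraries. There, of 100 genes changed by 1 on the log2 scale 38 passed among 14176 genes in crypts and 49 among 16743 in tumors, and of 100 changed by 2, 75 and 85 did, with 5 and 7 false calls. Fragments per gene were recovered from FPKM times gene length; 14457896 to 16156712 per library lay on genes, and a clock gene had at least 100 in each crypt library (*Cry2* the lowest) and at least 148 in each tumor library (*Dbp* the lowest). Ratios, correlations and spread were described with Python 3.11.15, numpy 2.4.6, pandas 2.3.3 and scipy 1.17.1, and drawn with matplotlib 3.10.9. Promoter sequences were RefSeq promoters of GRCm38.p6.

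The named genes were the 10 clock genes; of 20 other clock genes those with an unadjusted p under 0.05 and 7 listed by name; genes of a list of 14 that answer to glucocorticoids, fasting or handling; and in each tissue the 5 genes with the highest Pearson's r with *Dbp* and the 5 with the highest r with *Arntl*, where mean FPKM reached 1. Lists of markers of epithelium, crypt base and cycling cells, villus and surface enterocytes, stroma, smooth muscle, immune cells and endothelium were summed. The lists and rules were set before the data were examined, but with earlier results of these data known; which genes of the list of 14 are given with values was chosen after the values were seen. Other pseudocounts, filters, scalings, variance models, voom, a replicate block, leaving out each library and leaving out both *Xist* libraries were tried.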

Additional observations from a re-analysis of the deposited data

How the results depend on the processing

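Other filters, variance models and the replicate block leave a fold change as it is. Of the 120 other alternative fold changes of the clock genes in crypts 93 kept their direction, 38 of 60 when 1 library was left out and 55 of 60 otherwise; in tumors 125 of 130 did, 57 of 60 and 68 of 70. The lowest adjusted p over all alternatives was 0.665 and 0.242. In crypts *Clock* was 0.022 with libraries scaled to the same total and 0.025 with voom, *Per1* -0.0070 with quantile normalization and -0.039 scaled without the 50 highest genes, and *Cry2* 0.016 with quantile normalization. In tumors without both *Xist* libraries *Per3* was 0.16 and *Nr1d2* 0.11. The cause was not tested.

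Leaving out 1 library in turn, the log2 fold change in crypts ran from -0.075 to 0.36 for *Arntl*, -0.070 to 0.044 for *Clock*, -0.39 to 0.43 for *Per1*, -0.48 to 0.13 for *Per2*, -0.34 to 0.27 for *Per3*, -0.16 to 0.28 for *Cry1*, -0.28 to 0.34 for *Cry2*, -0.28 to 0.17 for *Nr1d1* and -0.067 to 0.69 for *Dbp*; *Nr1d2* was below 0 in each. In tumors it ran from -0.23 to 0.086 for *Per3* and -0.16 to 0.074 for *Nr1d2*, and the other 8 genes kept their direction. Of the 10 genes in tumors 2 had an unadjusted p under 0.05, and 1 to 3 did under the alternatives, not the same genes: *Dbp* was among them in 3 of the 6 fits that leave out 1 library and *Cry2* in 2. With the replicate block *Dbp* was the 1 gene. Adjusted p over the alternatives ran from 0.282 to 0.705 for *Dbp* and from 0.266 to 0.742 for *Cry2* in tumors.

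Genes with an adjusted p under 0.05 in crypts numbered 0 to 3 when 1 library was left out (3 without WT replicate 3), and in tumors 1 with no variance trend. With replicate number as a replicate block 0 genes passed in either tissue. The correlations of control and knockout libraries of the same number were -0.047, -0.122 and 0.037 in crypts and 0.054, -0.090 and 0.053 in tumors. These correlations show no pairing by number, though both tumor libraries numbered 3 expressed *Xist*. Genes with an unadjusted p under 0.05 were 494 higher and 335 lower in crypts but 313 and 475 when scaled without the 50 highest genes; in tumors 1417 and 1004 became 1075 and 1346 at the same total, 1116 and 1282 with quantile normalization, 1072 and 1354 without the 50 highest genes and 1079 and 1525 with voom. Depth limits the low genes most; *Ciart* rested on 30 to 105 fragments per crypt library.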
